A study of Mus musculus with 10 samples.

Results

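The carbonic anhydrases are described here in bulk RNA sequencing of mouse fibroblasts, for 8 member genes (Car2, Car3, Car4, Car5b, Car7, Car9, Car12 and Car13) of the 22731 genes in the count table. The members were chosen by family name from results of these same libraries that were already known, so their differences between groups are given as a description, without p-values, and nothing is supported by them. All 8 had a row in the count table, 6 were abundant enough to be tested, and Car2 and Car9 were too low. Fibroblasts (live, CD45-, Epcam-, CD31-, Pdpn+ and Pdgfra+) were sorted from mice and cultured alone (monoculture, 4 libraries), with wild-type group 2 innate lymphoid cells (ILC2s; WT coculture, 3 libraries) or with ILC2s lacking the cytokine interleukin 13 (IL13KO coculture, 3 libraries). The ILC2s were sorted as CD45+, CD3-, B220-, lineage-negative and KLRG1+ cells. After coculture the fibroblasts were sorted again, through a gate that the labels write as CD45+. The genotype label of all libraries is C57B6. The labels do not give the animals' age, the time in culture, the number of ILC2s, the form of the Il13 deletion, or whether animals were pooled. The design asked how ILC2s, and their interleukin 13, act on fibroblasts.

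Carbonic anhydrases are zinc enzymes that interconvert carbon dioxide and water with bicarbonate and a proton. The isoforms differ mainly in place: Car2, Car3, Car7 and Car13 are cytosolic, Car5b is mitochondrial, Car4 is tethered to the outer face of the plasma membrane by a lipid anchor, and Car9 and Car12 span that membrane with an outward-facing catalytic domain. In the pancreas the family is best known from duct cells, where Car2 feeds bicarbonate secretion. Car3, a slow isoform, is abundant in muscle, fat and liver, Car4 is also found on capillary endothelium, and Car9 is a textbook gene of the hypoxia response.

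The monocultures had 10710410 to 14366199 counts in all, the IL13KO cocultures 17277432 to 17661229 and the WT cocultures 18801744 to 22087459, so equal levels gave fewer reads in the monocultures. Levels are CPM, counts divided by the TMM-scaled library size and given per 1e+06. Il13 had 0 reads in all monocultures and all IL13KO cocultures, and 30, 120 and 121 reads in the WT cocultures. A count of 0 allows up to 3 reads in a library. The wild-type libraries are called 1, 3 and 4 here, as in the headings of the count table. Pdgfra, a fibroblast receptor used in the sort, stood at 372 ± 4.82 CPM (SD, n = 4) in monoculture, 633 ± 100 (n = 3) in WT coculture and 747 ± 86.6 (n = 3) in IL13KO coculture. All 8 listed fibroblast markers were in the count table, with sums of 7272 to 10030 CPM in monoculture, 10840 to 15350 CPM in WT coculture and 21770 to 27080 CPM in IL13KO coculture. The collagen genes Col1a1 and Col3a1 carry the higher sums. Against monoculture, 4 of the 8 rose and 2 fell in WT coculture, where Dcn went from 2532 to 369 CPM (-2.78) and Lum from 635 to 49.0 CPM (-3.69), and 5 rose and 2 fell in IL13KO coculture. Of all tested genes 32.8% rose and 29.7% fell in WT coculture, and 30.1% and 27.3% in IL13KO coculture. The pan-leukocyte gene Ptprc (CD45) had at most 9 reads in any library. Of 8 macrophage markers 5 were in the count table, with sums of 58.4 to 65.6 CPM, 14.9 to 17.7 CPM and 35.3 to 37.1 CPM in the same order. That sum is mostly Lyz2, with means of 53.4, 2.85 and 23.8 CPM, while Csf1r, the other tested marker, rose to 12.9 CPM in WT coculture from 8.999 (edgeR adjusted p = 0.0214). Of 8 red cell markers, 3 were in the count table and summed to at most 0.676 CPM. Nothing in the labels ties the libraries to separate animals or cultures, so errors measure the spread between libraries, which may be technical.

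Car4 was the member with the largest difference between the groups: 0.190 CPM in monoculture, 623 CPM in WT coculture and 13.5 CPM in IL13KO coculture. Car3 ran the other way, from 49.2 CPM in monoculture to 0.0509 CPM in WT coculture and 0.870 CPM in IL13KO coculture. Car13 was the steady member, between 29.6 and 50.4 CPM in every library. The other 5 had at most 3.33 CPM in any library. In WT coculture against monoculture, 2 members were higher (Car4 and Car13) and 1 was lower (Car3) by edgeR's quasi-likelihood test at an adjusted p below 0.05, where 32.8% of the 16344 tested genes were higher and 29.7% were lower. In IL13KO coculture against monoculture, 1 member was higher (Car4; 30.1% of all tested genes) and 1 was lower (Car3; 27.3%). In WT against IL13KO coculture, which is the test of the difference between both coculture effects, 2 were higher (Car4 and Car13; 11.6% of all tested genes) and 0 were lower (11.7%). These contrasts were known when the members were chosen, so nothing is read from the counts. The comparisons with monoculture share its 4 libraries. In bulk RNA, fewer cells of a type and less RNA per cell cannot be told apart.

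**Figure D1:**
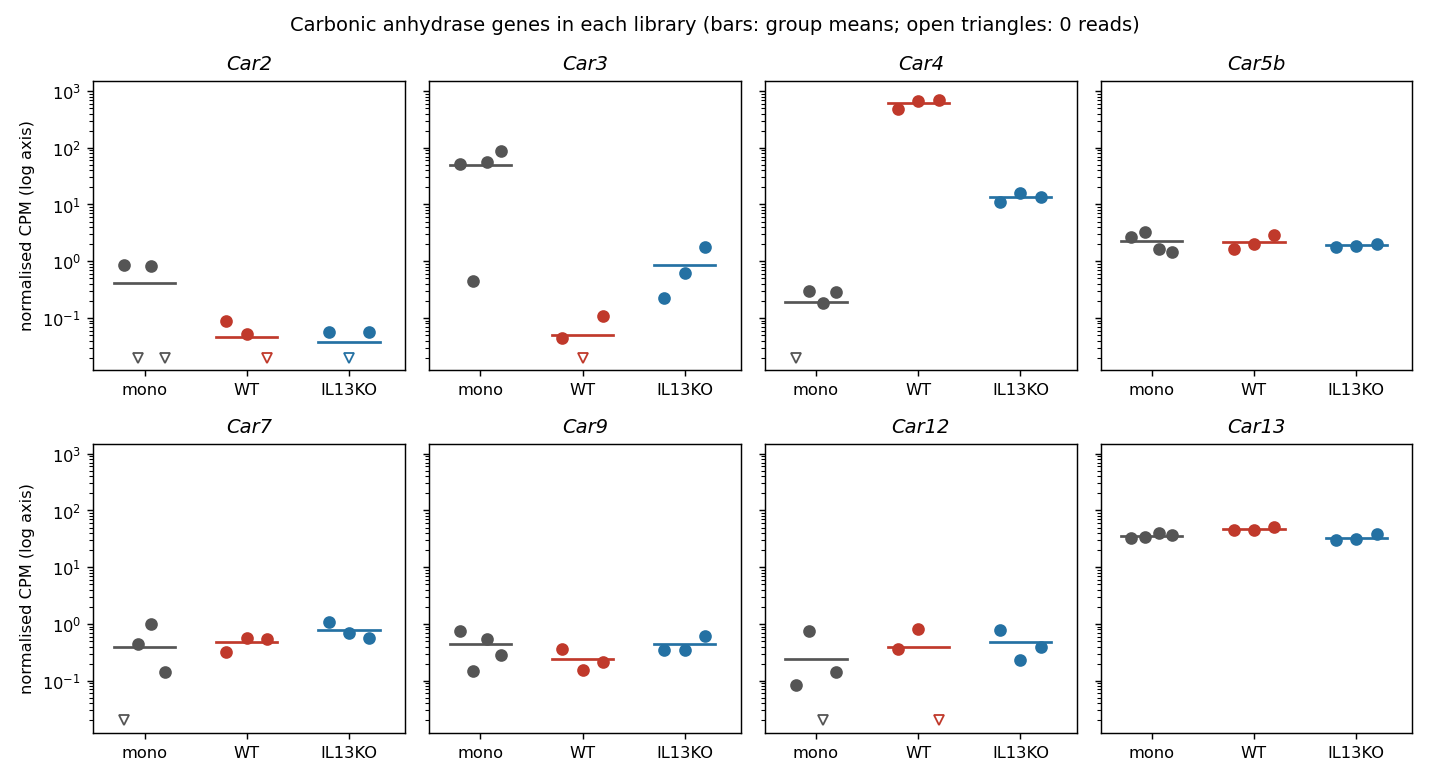
Level of each member in each library in CPM on a log axis, by group (mono, monoculture; WT and IL13KO, the cocultures). Points are libraries, bars are group means and open triangles are libraries with 0 reads; Car4 lies in separate ranges in all 3 groups, from 491 to 699 CPM in WT coculture, and Car3 has 1 monoculture library at 0.444 CPM, far below the other 3.

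Car4 (ENSMUSG00000000805), the lipid-anchored isoform, lies on the plus strand of chromosome 11 from 84957786 to 84966044 (GRCm38, GENCODE M21). None of its exon bases is shared with another annotated gene, and none of its 50-base stretches recurs in another gene's transcripts. The RefSeq start-site region is shown for Car4, as the member with the largest difference, and for Car9, as the hypoxia-response gene of the family. Each runs 5′ to 3′ on the plus strand of GRCm38.p6, from 250 bases before the start site, chr11:84957504-84957763 and chr4:43506776-43507035. Capitals mark the core of the hypoxia response element, ACGTG, or its reverse complement CACGT.
Car4: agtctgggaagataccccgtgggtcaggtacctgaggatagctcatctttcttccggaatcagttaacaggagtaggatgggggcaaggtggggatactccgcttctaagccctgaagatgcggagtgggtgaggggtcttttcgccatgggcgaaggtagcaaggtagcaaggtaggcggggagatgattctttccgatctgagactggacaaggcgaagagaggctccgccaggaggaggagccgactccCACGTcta
Car9: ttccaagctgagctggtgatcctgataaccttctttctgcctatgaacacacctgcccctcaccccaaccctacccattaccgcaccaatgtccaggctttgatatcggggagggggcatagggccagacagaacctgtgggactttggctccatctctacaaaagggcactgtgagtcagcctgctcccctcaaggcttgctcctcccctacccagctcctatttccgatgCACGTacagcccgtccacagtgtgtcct
In windows of 300 bases (250 before and 50 after the start), searched on both strands, Car4 had 1 ACGTG core, beginning 2 bases after the start base, and Car9 had 1, beginning 18 bases before it. Among all 32851 windows of that length in the table, 19.6% held this core. The STAT motif TTCNNNGAA and the STAT6 motif, which has 1 more base between TTC and GAA, were held by 8.3% and 6.95% of the windows and were in neither gene's window. Of the 5 members with a window, Car7 had 1 STAT6 motif in 1 of its 3 windows, and Car5b and Car12 had none of the 3 motifs. A match describes letters, not a site in use.

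Car4 had 0, 4, 2 and 4 reads in monocultures 1 to 4. It had 10940, 13278 and 12963 reads in WT cocultures 1, 3 and 4, and 195, 277 and 241 reads in IL13KO cocultures 1 to 3. As levels these were 0 to 0.296 CPM, 491 to 699 CPM and 11.1 to 15.7 CPM. Every WT coculture was above every IL13KO coculture, and every IL13KO coculture above every monoculture. The mean was 0.190 ± 0.136 CPM (SD, n = 4), 623 ± 115 CPM (n = 3) and 13.5 ± 2.35 CPM (n = 3). Among all genes the mean level of Car4 ranked 17808th in monoculture, 217th in WT coculture and 8294th in IL13KO coculture. The log2 fold change was 11.57 ± 0.29 (SE) in WT coculture against monoculture, 6.04 ± 0.33 in IL13KO coculture against monoculture, and 5.53 ± 0.21 in WT against IL13KO coculture. The mean CPM of the WT cocultures was 46.2 times that of the IL13KO cocultures, and the ratio of their scaled reads was 45.7 with a 95% interval of 42.4 to 49.3. That interval covers counting error only. The folds against monoculture rest on 10 reads in 4 libraries, and the reads of the WT cocultures per monoculture read, scaled for depth, came to 3105 with an interval of 1688 to 6477.

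Summed marker levels of other cells differed between the groups beside Car4, each through few genes. The summed level of 8 leukocyte genes was 4.98 to 8.65 CPM in monoculture, 96.3 to 121 CPM in WT coculture and 16.4 to 24.2 CPM in IL13KO coculture. Most of that sum was Cd53, at 92.4 to 112 CPM in WT coculture, while Ptprc reached 0.485 CPM there. Of the 4 tested leukocyte genes, Cd53 rose and Itgb2 fell (-1.03, edgeR adjusted p = 0.0101) in WT coculture against monoculture, and only Cd53 was called in the other 2 comparisons, higher in both. Of all tested genes 32.8% rose and 29.7% fell in WT coculture, and 30.1% and 27.3% in IL13KO coculture, each against monoculture. Between the cocultures 11.6% were higher and 11.7% lower in WT. These shares stand beside the ILC2 and endothelial counts below, too. Of 12 ILC2 markers, 11 were in the count table, and their sum was 65.9 to 82.1 CPM, 1262 to 1512 CPM and 75.8 to 83.2 CPM. Il1rl1, which encodes the interleukin 33 receptor, made up most of the sum in WT coculture, at 1184 to 1445 CPM. Of 7 tested ILC2 markers, 6 rose and 1 fell (Rora, -0.61) in WT coculture, and 5 rose and 0 fell in IL13KO coculture, each against monoculture, while 4 were higher and 1 lower in WT than in IL13KO coculture. The summed ILC2 markers of the IL13KO cocultures overlapped those of the monocultures, where Car4 did not overlap. Rora made up most of the sum in both, with means of 63.7 CPM in monoculture and 55.25 CPM in IL13KO coculture. Il1rl1, Il5, Il2ra and Arg1 lay above every monoculture in the IL13KO cocultures, as Car4 did, while Gata3 overlapped and Rora lay below. Il5 had 0 reads over the monocultures and 106 over the IL13KO cocultures, Il2ra 1 and 87, and Arg1 1 and 20. Il13 itself stood at 1.35 to 6.52 CPM in the WT cocultures, and the library with the lowest Il13, WT coculture 1, also had the lowest Car4. Il5 was lowest there, too, while Il1rl1 was lowest in WT coculture 4. With 3 libraries nothing is read from these orders. Of 8 capillary endothelial markers, 4 were in the count table, with a sum of 6.42 to 9.91 CPM, 42.2 to 45.5 CPM and 10.8 to 17.2 CPM. Of 2 tested, both rose in WT coculture and 1 in IL13KO coculture against monoculture, and 1 was higher in WT than in IL13KO coculture. Flt1 made up most of the sum in WT coculture, and the defining gene Pecam1 had 0 to 8 reads in every library. The part of these cells in the Car4 values was not tested.

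The genes whose profile over the 10 libraries was nearest to that of Car4, by the root mean square difference of centred log2 CPM among 12796 genes, were Cxcl13, Aqp1 and Smpd3. Cxcl13, a chemokine that draws B cells, was 1.2 log2 units away, with a mean of 1.29 CPM in monoculture, 445 CPM in WT coculture and 29.0 CPM in IL13KO coculture. Aqp1, the water and gas channel aquaporin 1, was 1.58 units away and Smpd3, a neutral sphingomyelinase, 1.65 units.

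**Figure D2:**
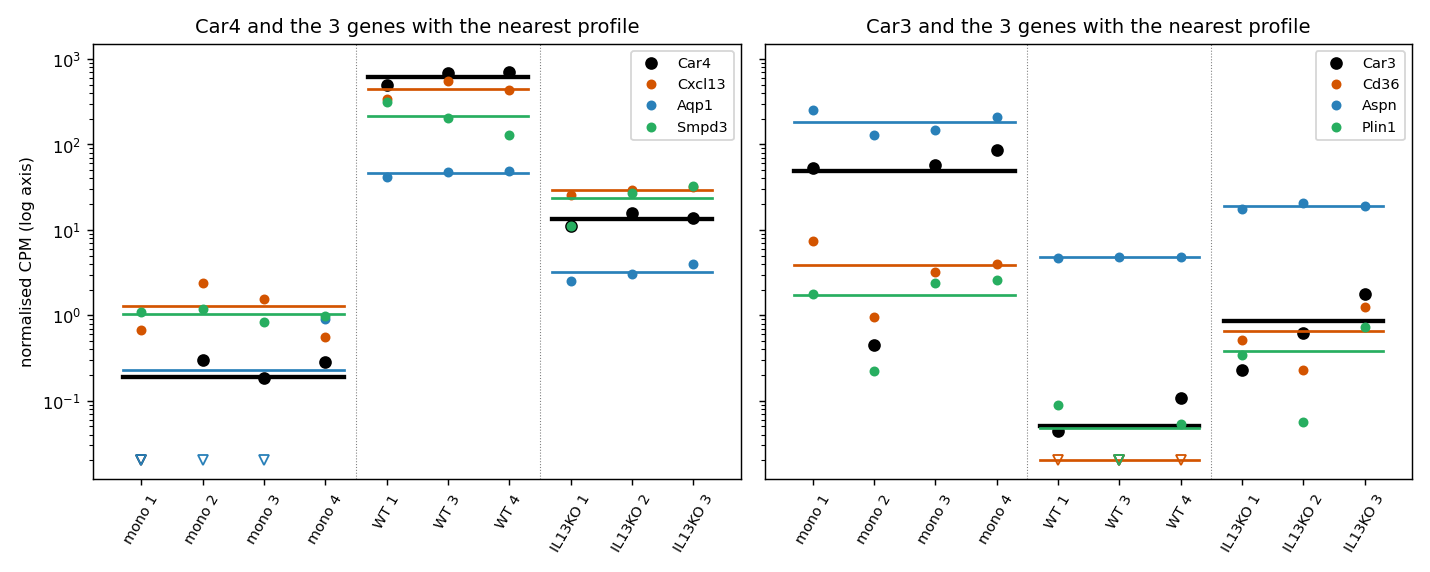
Level in CPM on a log axis in each of the 10 libraries, for Car4 (left) and Car3 (right) in black and the 3 genes with the nearest profile to each in colour. Points are libraries, horizontal bars are group means, a bar at the foot of the axis is a group mean of 0, and open triangles are libraries with 0 reads. Cd36 had 0 reads in all 3 WT cocultures, and Car3, Cd36, Aspn and Plin1 are each lowest among the monocultures in monoculture 2. Cd36, Aspn and Plin1 were picked for their nearness to Car3 over these same libraries.

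Car3 (ENSMUSG00000027559; chromosome 3, 14863512 to 14872523, plus strand), the cytosolic isoform of muscle and fat, had 620, 6, 618 and 1240 reads in monocultures 1 to 4. It had 1, 0 and 2 reads in WT cocultures 1, 3 and 4 and 4, 11 and 31 reads in IL13KO cocultures 1 to 3. Of the monocultures, 3 stood at 52.4 to 87.2 CPM and monoculture 2 at 0.444 CPM, inside the IL13KO range of 0.227 to 1.76 CPM. The WT cocultures, at 0 to 0.108 CPM, lay below every other library. The mean was 49.2 ± 36.0 CPM (SD, n = 4) in monoculture, 0.0509 ± 0.0541 CPM (n = 3) in WT coculture and 0.870 ± 0.794 CPM (n = 3) in IL13KO coculture. The log2 fold change was -9.75 ± 1.61 (SE) in WT coculture and -5.81 ± 1.14 in IL13KO coculture, each against monoculture. Both were called by edgeR and neither by limma-voom, which gave -8.19 and -4.75. Without monoculture 2 the folds were -10.17 and -6.23. WT against IL13KO coculture gave -3.94 ± 2.47 and was not called, although the groups did not overlap. It was called by DESeq2, at -4.12, and, at the same -3.94, once monoculture 2 was left out. The 3 reads of the WT cocultures stood against 46 of the IL13KO cocultures, a depth-scaled ratio of IL13KO to WT of 17.5 with a 95% counting interval of 5.63 to 88.0.

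Most fat-cell markers were ordered across the groups like Car3. Of 11 such genes 10 were in the count table, and their sum was 936 to 1106 CPM in monoculture, 224 to 283 CPM in WT coculture and 509 to 671 CPM in IL13KO coculture. Of the 8 tested, 7 fell in WT coculture against monoculture, 5 fell and 1 rose in IL13KO coculture against monoculture, and 7 were lower in WT than in IL13KO coculture, where 29.7%, 27.3% and 11.7% of all tested genes were lower. The rise was that of Plin4 (2.64), with means of 0.4565, 0.422 and 2.88 CPM in monoculture, WT coculture and IL13KO coculture. Adipoq (-1.12) and Adrb3 (-0.14) were not called in IL13KO coculture against monoculture. Lpl (lipoprotein lipase) carried most of the sum, at 760 to 885 CPM in monoculture and 188 to 238 CPM in WT coculture. The fat hormone gene Adipoq had 20 to 74 reads per monoculture and 2 to 17 per WT coculture, and the lipid droplet gene Plin1 had 3 to 37 and 0 to 2. Monoculture 2 was the lowest monoculture for Plin1 (0.222 CPM against 1.77 to 2.60 CPM), for Adipoq (1.48 against 3.46 to 5.20 CPM) and for Cd36 (0.963 against 3.23 to 7.35 CPM), as it was for Car3. Cd36 is a fatty acid transporter outside the fat list. Cd36 and Plin1 are also among the nearest profiles to Car3, so a low value shared with Car3 follows in part from that choice. The share of all genes lowest in monoculture 2 was not counted. Of the 8 tested genes in the list, 5 were lowest in monoculture 2 among the monocultures (Plin1, Adipoq, Cebpa, Fabp4 and Lpl), and Adrb3, Plin4 and Pparg were not: Adrb3 was lowest in monoculture 1 (3.12 against 6.52 CPM in monoculture 2), as was Plin4 (0 against 0.667 CPM), and Pparg in monoculture 3 (63.9 against 74.0 CPM). The summed list was lowest in monoculture 2. Of 10 skeletal muscle markers, 6 were in the count table. Their sums were 42.6 to 64.6 CPM in monoculture, 19.2 to 26.9 CPM in WT coculture and 39.8 to 63.1 CPM in IL13KO coculture. Monoculture 2 (53.5 CPM) was not the lowest monoculture. Of 4 tested, 0 rose and 1 fell in WT coculture, and 1 rose and 1 fell in IL13KO coculture, each against monoculture. Between the cocultures 0 were higher and 2 lower in WT. Of all tested genes 32.8% rose and 29.7% fell in WT coculture, and 30.1% and 27.3% in IL13KO coculture. Between the cocultures 11.6% of all tested genes were higher and 11.7% lower in WT. Acta1 fell in both cocultures, with means of 32.15, 1.83 and 16.06 CPM in monoculture, WT coculture and IL13KO coculture. Des rose in IL13KO coculture, with means of 16.67, 17.8 and 35.95 CPM in the same order. The part of fat or muscle cells in the Car3 values was not tested.

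The profiles nearest to that of Car3 were those of Cd36 (1.81 log2 units away), Aspn, an extracellular matrix proteoglycan (1.96 units), and Plin1 (2.07 units). Aspn had means of 185 CPM, 4.78 CPM and 19.2 CPM in monoculture, WT coculture and IL13KO coculture, without a low value in monoculture 2 of the size seen for Car3. Its monoculture values ran from 128 CPM, in monoculture 2, to 254 CPM.

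Car13 (ENSMUSG00000027555; chromosome 3, 14641727 to 14663002, plus strand), another cytosolic isoform, had 395 to 522 reads per monoculture, 869 to 1016 per WT coculture and 522 to 668 per IL13KO coculture. Its level was 33.4, 34.4, 39.3 and 36.7 CPM in monocultures 1 to 4. It was 45.6, 44.5 and 50.4 CPM in WT cocultures 1, 3 and 4, and 29.6, 31.5 and 37.9 CPM in IL13KO cocultures 1 to 3. The WT cocultures lay above all other libraries, and the IL13KO cocultures overlapped the monocultures. The mean of the WT cocultures, 46.8 ± 3.12 CPM (SD, n = 3), was 1.30 times that of the monocultures (35.9 ± 2.62, n = 4) and 1.42 times that of the IL13KO cocultures (33.0 ± 4.34, n = 3). The log2 fold change was 0.38 ± 0.11 (SE) in WT coculture against monoculture, -0.12 ± 0.12 in IL13KO coculture against monoculture, which was not called, and 0.51 ± 0.12 in WT against IL13KO coculture. Both calls are of a small difference. The first was lost under upper-quartile scaling (0.26), which moved the median of all genes to -0.11 from 0.02. The second was lost without IL13KO coculture 1 (0.44) or 2 (0.47). After a trend in GC content and gene length was removed, the value was 0.76 for WT coculture and, with its sign turned, 0.26 for IL13KO coculture, each against monoculture. Among the nearest profiles, that of Agpat4 lay 0.0759 log2 units away and that of Rplp2, which encodes a ribosomal protein, 0.0892 units.

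Among the other cytosolic members, Car2 (ENSMUSG00000027562; chromosome 3, 14886273 to 14900770, plus strand) was too low to test. It had 10, 0, 9 and 0 reads in monocultures 1 to 4, a total of 3 over the WT cocultures and of 2 over the IL13KO cocultures. The 2 monocultures with reads were above all cocultures, and the other 2 were at 0. The depth-scaled ratio of monoculture to WT coculture was 7.58 with a counting interval of 2.23 to 40.0, an interval that leaves out the disagreement between the monocultures. Of 9 duct cell markers 8 were in the count table, with sums of 97.9 to 131 CPM in monoculture, 106 to 210 CPM in WT coculture and 76.8 to 109 CPM in IL13KO coculture. Nearly all of that sum is Spp1 (means of 114, 152 and 86.7 CPM), which is not particular to ducts. The defining genes were near 0: Krt8 and Cftr had 0 reads in every monoculture and every WT coculture, and Krt19 had means of 0.159, 1.07 and 0.530 CPM. Krt7 had 43 reads over the monocultures, 1 over the WT cocultures and 61 over the IL13KO cocultures. It was called lower in WT coculture, by -5.20 against monoculture and -5.58 against IL13KO coculture. Krt19 was called higher in WT coculture against monoculture (2.84), and Krt18 was called in no comparison. Car2 and Car3 are neighbours on chromosome 3, and the monocultures with Car2 reads, 1 and 3, were 2 of the 3 with high Car3. Car7 (ENSMUSG00000031883; chromosome 8, 104534689 to 104550343, plus strand), a cytosolic isoform best known in neurons, had 0, 6, 11 and 2 reads in the monocultures, against 7, 11 and 10 with wild-type ILC2s and 19, 12 and 10 with IL13KO ILC2s. As levels the IL13KO cocultures (0.567 to 1.08 CPM) lay just above the WT cocultures (0.314 to 0.564 CPM), and both overlapped the monocultures. The log2 fold changes were 0.28 ± 0.74 (SE), 1.0 ± 0.71 and -0.72 ± 0.70 in the order WT against monoculture, IL13KO against monoculture and WT against IL13KO, and none was called. The second was called, at 1.91, only when monoculture 3 was left out. The nearest profile was that of Dcp1b, 0.317 log2 units away.

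Car5b (ENSMUSG00000031373; chromosome X, 163976822 to 164027997, minus strand), the mitochondrial member, had 32, 45, 18 and 21 reads in the monocultures, against 36, 39 and 53 with wild-type ILC2s and 32, 33 and 36 with IL13KO ILC2s. Its mean was 2.29 ± 0.879 CPM (SD, n = 4), 2.16 ± 0.635 CPM (n = 3) and 1.91 ± 0.117 CPM (n = 3), with overlapping groups. The log2 fold changes were -0.10 ± 0.33 (SE), -0.26 ± 0.33 and 0.17 ± 0.35 in the same order, and none was called. Of its 50-base stretches 3.79% recur in transcripts of other genes, so a small part of its reads is of uncertain origin. Its nearest profile, that of Zdhhc17, was 0.187 units away.

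Both membrane-spanning members were low. Car9 (ENSMUSG00000028463; chromosome 4, 43506966 to 43513729, plus strand) had 9, 2, 6 and 4 reads in the monocultures, against 8, 3 and 4 with wild-type ILC2s and 6, 6 and 11 with IL13KO ILC2s, and was not tested. Its mean was 0.436 ± 0.274 CPM (SD, n = 4), 0.243 ± 0.105 CPM (n = 3) and 0.435 ± 0.163 CPM (n = 3), with overlapping groups. The antisense gene Gm12454 covers 9.29% of its exon bases, and without known strand in the counting their reads cannot be told apart. Car12 (ENSMUSG00000032373; chromosome 9, 66713686 to 66766845, plus strand) had 1, 10, 0 and 2 reads in the monocultures, against 8, 16 and 0 with wild-type ILC2s and 14, 4 and 7 with IL13KO ILC2s. It had a library at 0 reads in 2 of the 3 groups, its groups overlapped, and its log2 fold changes of 0.63 ± 1.01 (SE), 0.88 ± 1.01 and -0.25 ± 0.95 were not called. The depth-scaled ratio of IL13KO to WT coculture reads was 1.75 for Car9 (95% counting interval 0.875 to 3.61) and 1.19 for Car12 (0.652 to 2.18), so no difference was detectable at this depth.

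The make-up of the family differed between the groups. The 8 members summed to 90.1, 39.8, 101 and 126 CPM in monocultures 1 to 4, to 539, 728 and 753 CPM in WT cocultures 1, 3 and 4, and to 45.0, 51.0 and 57.0 CPM in IL13KO cocultures 1 to 3. In the WT cocultures 91.0% to 93.4% of the sum was Car4. In the IL13KO cocultures Car13 made up 61.8% to 66.5% and Car4 24.0% to 30.9%. Car3 made up 56.7% to 69.1% in monocultures 1, 3 and 4, and 1.12% in monoculture 2, where 86.4% was Car13. With Car3 near the bottom of its range there, monoculture 2 was the library with the smallest sum.

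**Figure D3:**
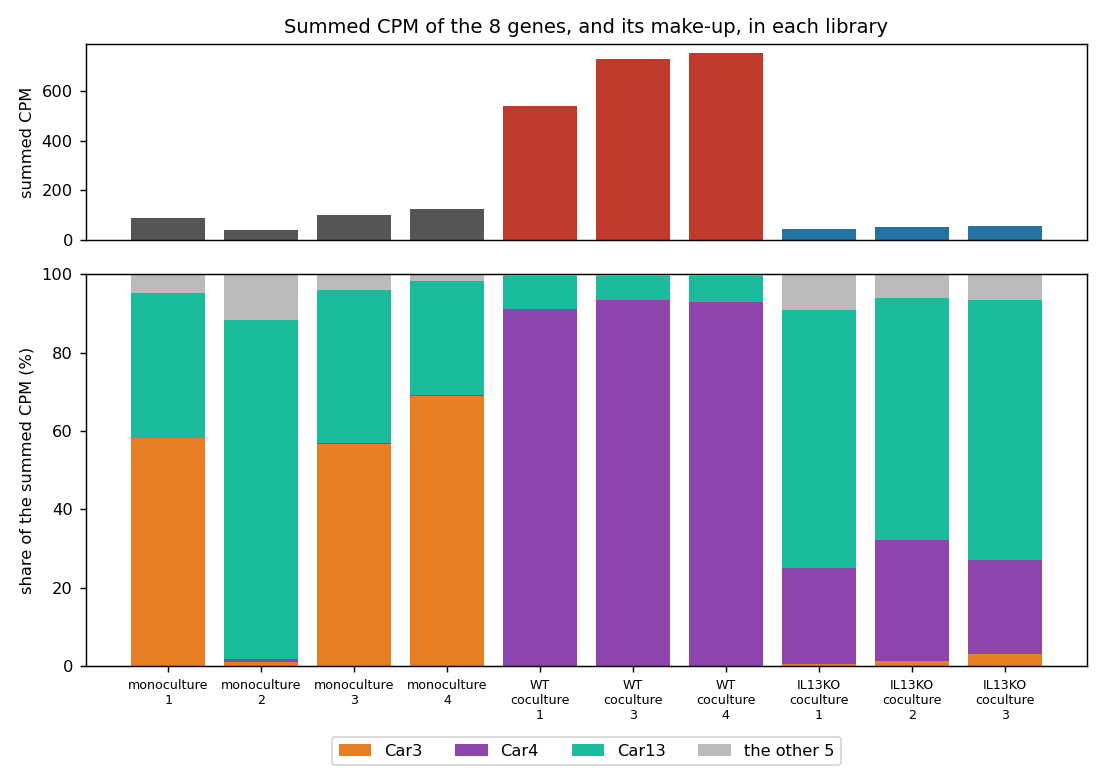
Summed CPM of the 8 members in each library (upper bars) and the share of each sum in percent held by Car3, Car4, Car13 and the other 5 members (lower stacked bars). WT cocultures are at least 91.0% Car4, IL13KO cocultures at least 61.8% Car13, and monoculture 2 differs from the other monocultures by its lack of Car3.

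Levels of different genes were compared per kilobase of the longest transcript, over the 13 carbonic anhydrase genes in the count table. In monoculture Car3 (29.3 ± 21.5 CPM per kb; SD, n = 4) and Car13 (15.6 ± 1.14) came first. Their order is not beyond the spread, since monoculture 2 had 0.265 for Car3. They were followed by 3 genes outside the 8 members, Car6, Car11 and Car14, and then by Car5b at 0.667 ± 0.256. In WT coculture Car4 (496 ± 91.6 CPM per kb, n = 3) was followed by Car13 (20.4 ± 1.36), with no overlap. In IL13KO coculture Car13 (14.4 ± 1.89 CPM per kb, n = 3) came before Car4 (10.7 ± 1.87), and their libraries, at 12.9 to 16.5 and 8.80 to 12.5 CPM per kb, did not overlap but lay close. Car2, Car7, Car9 and Car12 had at most 0.5545 CPM per kb in any library, and their order is not resolved. Over the union of all exons, which is longer, Car4 came to 317 CPM per kb in WT coculture and 6.86 in IL13KO coculture.

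Of 8 other carbonic anhydrase genes, 5 were in the count table and 3 were tested. They were chosen like the members with earlier results known, so their adjusted p-values are descriptions. Car11, a secreted relative without enzyme activity, fell from 6.44 ± 0.435 CPM (SD, n = 4) in monoculture to 2.50 ± 0.518 CPM (n = 3) in WT coculture, and was at 6.90 ± 0.573 CPM (n = 3) in IL13KO coculture. Its log2 fold change was -1.37 ± 0.20 (SE; edgeR adjusted p = 6.13e-05) against monoculture and -1.47 ± 0.21 (edgeR adjusted p = 2.67e-04) against IL13KO coculture, and the WT cocultures lay below all other libraries. In IL13KO coculture against monoculture Car11 gave 0.10 ± 0.18, which was not called, but it turned to a called fall of -0.75 (edgeR adjusted p = 0.00821) when the GC and length trend was removed. Car6, the secreted isoform of saliva, was at 10.3 ± 1.66 CPM (SD, n = 4), 14.4 ± 3.34 CPM (n = 3) and 9.33 ± 0.862 CPM (n = 3). Its rise in WT coculture (0.48 ± 0.18, SE; edgeR adjusted p = 0.0377) was lost without monoculture 1 (0.44), 3 (0.46) or 4 (0.41) or WT coculture 4 (0.28). Its difference from IL13KO coculture (0.63 ± 0.20; edgeR adjusted p = 0.0361) was lost without WT coculture 4 (0.43) or IL13KO coculture 1 (0.59), 2 (0.59) or 3 (0.71). Car14, a membrane-spanning isoform that shares 17.5% of its exon bases with the antisense gene Aph1a, was not called in any of the 3 comparisons; with the replicate number as a block it was called in WT coculture (0.82). Car8, an inactive relative, was below the filter, with 38 reads over the monocultures, 1 over the WT cocultures and 8 over the IL13KO cocultures.

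**Figure D4:**
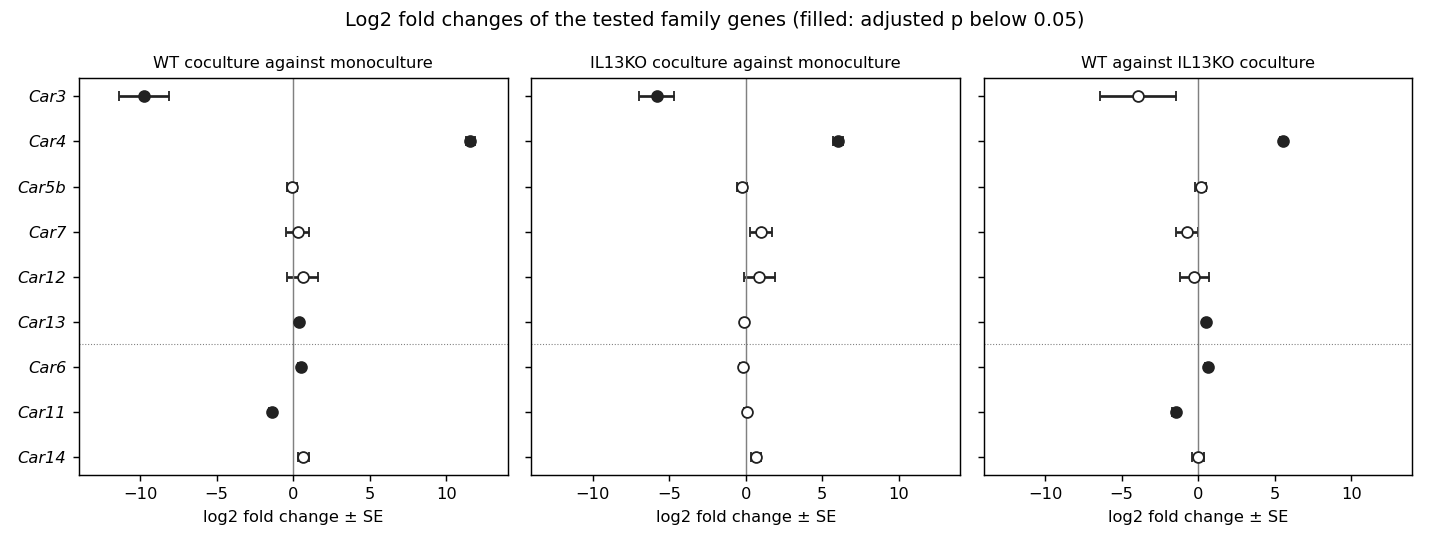
Log2 fold change with its SE for the 6 tested members (above the dotted line) and 3 other tested family genes (below it), in each of the 3 comparisons. Filled points have an adjusted p below 0.05, open points do not; Car4 has the largest positive value in every panel and Car3 the widest error bars.

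Genes that work beside the enzymes were followed in 5 lists (bicarbonate transporters, proton and lactate transporters, water and gas channels, acid sensors and hypoxia-induced genes), chosen like the members with earlier results known. Genes named from them had the smallest adjusted p of their list or were picked after their values were seen. Their adjusted p-values are therefore descriptions, and nothing is supported by them. Of 7 tested bicarbonate transporters, 5 rose and 0 fell in WT coculture against monoculture, 4 rose and 0 fell in IL13KO coculture against monoculture, and 0 were called between the cocultures. Over all tested genes 32.8% rose and 29.7% fell in WT coculture, and 30.1% and 27.3% in IL13KO coculture. Between the cocultures 11.6% were higher and 11.7% lower in WT. The IL13KO call of Slc4a8 (2.33) was lost without monoculture 1 (1.94) or 4 (2.11) or IL13KO coculture 3 (1.82), and the WT call of Slc26a6 (0.92) without WT coculture 1 (0.68). The list's median log2 fold changes were 0.92, 1.63 and 0.02, against 0.02, 0.00 and -0.00 over all genes. Slc4a2, an anion exchanger, rose from 13.0 ± 9.28 CPM (SD, n = 4) to 89.6 ± 34.4 CPM (n = 3) in WT coculture and 109 ± 12.0 CPM (n = 3) in IL13KO coculture, log2 fold changes of 2.80 ± 0.39 (SE) and 3.08 ± 0.39. After removal of the GC and length trend, the list stood at 3 higher and 2 lower in WT coculture. In IL13KO coculture it stood at 2 higher and 3 lower. Over all tested genes that step gave 4123 higher and 5526 lower calls in WT coculture, and 3027 and 4990 in IL13KO coculture. The direction of the list depended on that step, as did the balance of all genes. Under upper-quartile scaling the list was at 4 higher and 1 lower, then 4 and 2.

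Of 9 tested proton and lactate transporters, 5 rose and 2 fell in WT coculture against monoculture, 6 rose and 0 fell in IL13KO coculture against monoculture, and 1 was higher and 1 lower in WT than in IL13KO coculture. Over all tested genes 32.8% rose and 29.7% fell in WT coculture, and 30.1% and 27.3% in IL13KO coculture. Between the cocultures 11.6% of them were higher and 11.7% lower in WT. The list's median log2 fold changes were 0.37, 0.41 and -0.22, against 0.02, 0.00 and -0.00 over all genes. Slc16a3 (MCT4), which exports lactate with a proton, stood at 2.79, 7.26, 16.0 and 4.85 CPM in monocultures 1 to 4, against 304 to 546 CPM with wild-type and 117 to 166 CPM with IL13KO ILC2s. All 3 groups were separate. Its log2 fold changes were 5.81 ± 0.41 (SE; edgeR adjusted p = 1.76e-07), 4.14 ± 0.40 (4.11e-06) and, between the cocultures, 1.67 ± 0.37 (0.00632). Bsg, the chaperone of the lactate transporters, was lower in WT than in IL13KO coculture (-0.57 ± 0.13; edgeR adjusted p = 0.00686). After removal of the GC and length trend the list had 2 higher and 2 lower in WT coculture, 3 and 1 in IL13KO coculture. The balance of all genes turned to lower calls under that step, too.

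Of 3 tested water and gas channels 1 was called, Aqp1, and it was higher in all 3 comparisons. Aqp9, a channel for water and glycerol, gave 1.63 ± 0.79 (SE) in IL13KO coculture against monoculture, not called, but was called by limma-voom (2.76) and, without monoculture 4, by edgeR (3.95). Without monoculture 4 it was also called in WT coculture (2.68, against 0.36). Aqp1, which passes water and carbon dioxide, had 0, 0, 0 and 13 reads in monocultures 1 to 4, 936, 932 and 917 with wild-type ILC2s and 44, 53 and 71 with IL13KO ILC2s. Its log2 fold change between the cocultures was 3.86 ± 0.43 (SE; edgeR adjusted p = 4.25e-05), with all groups separate. Against monoculture the fits gave 7.46 ± 0.54 and 3.60 ± 0.63. All 13 monoculture reads came from 1 library: without monoculture 4, WT coculture was at least 557-fold higher by the limit of 3 reads over the group, and the fits moved to 12.59 and 8.72. Of 2 tested acid sensors, 1 rose in WT coculture and 2 rose in IL13KO coculture against monoculture, and 1 was lower in WT than in IL13KO coculture. Of all tested genes 32.8% rose in WT coculture and 30.1% rose in IL13KO coculture. Between the cocultures 11.6% were higher and 11.7% lower in WT. These shares stand beside the channels, too. The rise in WT coculture is that of Asic1 (1.90 ± 0.73, SE; edgeR adjusted p = 0.0379), and its call was lost without monoculture 1 (1.52), 3 (1.55) or 4 (2.09), without WT coculture 1 (1.40) or 4 (2.03), and without any 1 of the IL13KO cocultures (1.91 each). After removal of the GC and length trend the counts were 1 lower in WT coculture and 0 called in IL13KO coculture. That step turned the balance of all genes to lower calls as well.

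Of 19 tested hypoxia-induced genes, 13 rose and 3 fell in WT coculture against monoculture, 10 rose and 4 fell in IL13KO coculture against monoculture, and 12 were higher and 0 lower in WT than in IL13KO coculture. Over all tested genes 32.8% rose and 29.7% fell in the first comparison, 30.1% and 27.3% in the second, and 11.6% were higher and 11.7% lower in the last. The median log2 fold changes were 0.91, 0.42 and 0.80, against 0.02, 0.00 and -0.00 over all genes. The last count was 12 and 0 under upper-quartile scaling, too, and after removal of the GC and length trend. Pfkfb4, a regulator of glycolysis, was at 1.85 ± 0.571 CPM (SD, n = 4), 27.4 ± 1.40 CPM (n = 3) and 10.2 ± 1.12 CPM (n = 3) in monoculture, WT coculture and IL13KO coculture. The glucose transporter Slc2a1 was at 61.4 ± 14.4 CPM (n = 4), 271 ± 18.3 CPM (n = 3) and 128 ± 9.54 CPM (n = 3), and differed between the cocultures by 1.08 ± 0.17 on the log2 scale (SE; edgeR adjusted p = 5.58e-04). Pdk1, which holds pyruvate back from the mitochondria, differed by 0.99 ± 0.15 and P4ha1, a collagen prolyl hydroxylase subunit, by 0.82 ± 0.11. Vegfa, another hypoxia gene, was called in no comparison, and Ndrg1 and Adm fell in both cocultures. Car9, whose start-site region is printed above, had 15 reads over the WT cocultures and 23 over the IL13KO cocultures.

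**Figure D5:**
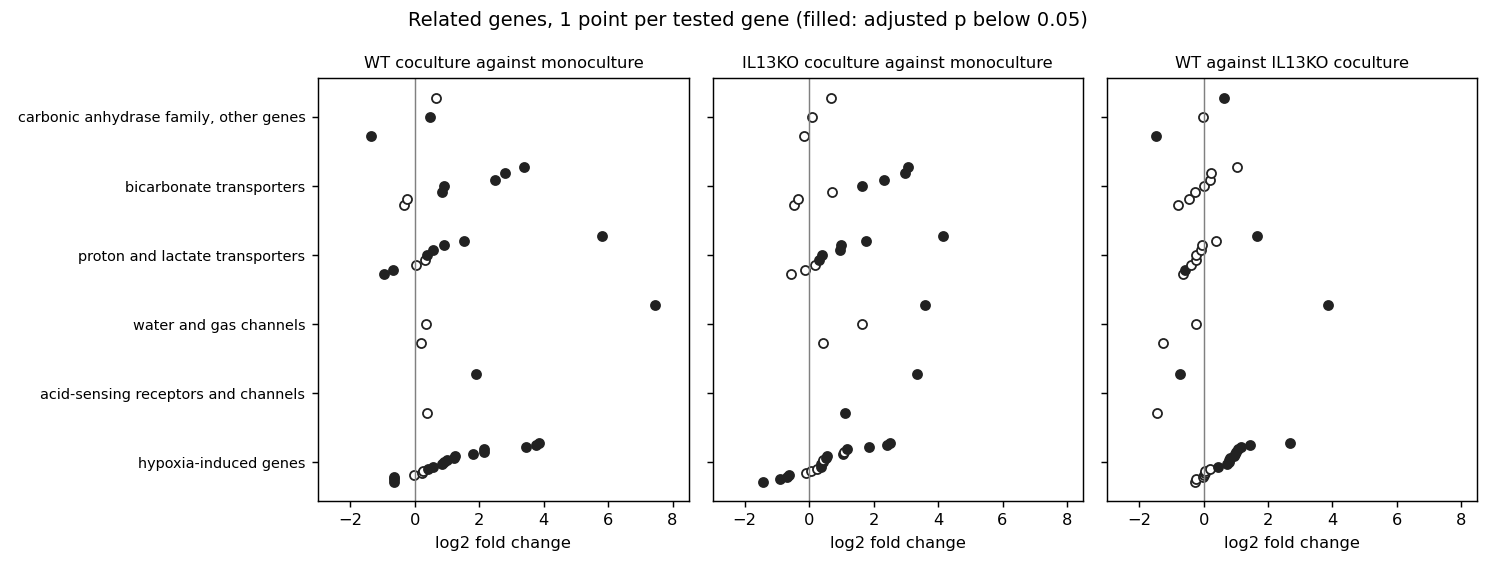
Log2 fold change of each tested gene in 6 related lists, in each of the 3 comparisons. Each point is 1 gene, filled where its adjusted p was below 0.05; in the panel of WT against IL13KO coculture 12 of the 19 hypoxia-induced genes are filled and lie right of 0, and Aqp1 is the rightmost point there and in the panel of WT coculture against monoculture.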

How the data were processed

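The members and all gene lists were chosen with earlier results of these data known. Total RNA of 10 libraries was sequenced in pairs of 50 bases, per the labels' protocols. The submitters' processing notes name the build GRCm38.p6, the aligner STAR 2.7.7a and the quantifier Salmon 1.6.0, beside DESeq2, Picard, Trimmomatic 0.39 and FastQC 0.11.9; the counter, annotation and strand setting are not given in the sources used here. The authors deposited a table of raw counts per gene and a normalized signal table, which times its size factors returned the counts within 0.00275 and was not analysed further. Of 22731 genes, 22639 matched GENCODE M21. Genes with enough reads for edgeR's default filter (16344) were fitted by edgeR 4.0.16 (quasi-likelihood, TMM scaling, 1 coefficient per group, all 10 libraries; R 4.3.3), with Benjamini-Hochberg adjustment within each comparison and calls at an adjusted p below 0.05. The SE of a log2 fold change is its size over the square root of the F value. Overlaps, shared 50-base stretches and lengths came from GENCODE M21, and start-site regions from RefSeq. Intervals on reads are exact and cover counting error only.

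Alternatives were upper-quartile and RLE scaling, DESeq2 1.42.0, limma-voom (limma 3.58.1), other low-count filters, only the groups compared, the replicate number as a block, GC and length trends removed, and leaving out each library. Named genes were the 8 members, up to 4 genes per list and comparison with the smallest adjusted p, the 3 nearest profiles of each tested member, and Il13, Pdgfra, Pdpn and Ptprc. Others named (Cd53, Il1rl1, Flt1, Pecam1, Lpl, Adipoq, Vegfa, Ndrg1, Adm, Egln3 and other single markers) were chosen after their values were seen. The fit was also run on simulated counts in which few genes changed, by small folds. That setting is unlike these data, so the run does not vouch for the fit here. Wild-type columns numbered 1, 3 and 4 were matched to their group only, since the titles run from 1 to 3. The labels describe the sort after coculture as CD45+, against the CD45- sort before it. Ptprc, which encodes CD45, had at most 9 reads in any library, while Pdgfra had group means of 372 to 747 CPM. Those levels are unlike a CD45+ population, and the gate was not checked further. A few genes that this rule picks are not reported here. Promoters of 3 members and protein sequences were not used here.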

Additional observations from a re-analysis of the deposited data

Results flagged for a closer look

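Car3 in monoculture 2 stood apart from the other monocultures: on the log2 CPM scale its gap to the nearest library was 0.899 of the group's range, above the 95% critical value of Dixon's test for 4 samples. On the CPM scale the same gap was 0.599 of the range, below it. The monocultures were examined in this way for all 8 members in CPM and for the 6 tested members in log2 CPM, and no other value was flagged. Chance flags about 1 in 20 groups.

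The following genes differed between the coculture effects, by the edgeR test of WT against IL13KO coculture. Among the members these were Car4 (log2 fold change 5.53) and Car13 (0.51). These and the genes below are descriptions, because the members and the lists were chosen with earlier results known. In the rest of the family they were Car6 (0.63) and Car11 (-1.47). Among the transporters and channels they were Slc16a3 (1.67), Bsg (-0.57) and Aqp1 (3.86). Asic3, an acid-sensing channel, gave -0.72, a call lost without WT coculture 3 (-0.55) or IL13KO coculture 1 (-0.71), 2 (-0.72) or 3 (-0.73). Of the 12 hypoxia-induced genes called, those named for a small adjusted p in any comparison were Pfkfb4 (1.43), Pfkfb3 (0.93), Pdk1 (0.99), Slc2a1 (1.08) and P4ha1 (0.82). The others called included the largest difference of the list, that of Egln3 (2.68).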

How the results depend on the processing

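The folds of Car4 kept direction and call under every alternative run. Genes called in WT against IL13KO coculture numbered 3810, against 5806 with only the groups compared and 2124 with the replicate number as a block, and 2337 to 4814 when each library was left out (2523 without WT coculture 4, 2482 and 2337 without IL13KO coculture 1 and 2). Leaving out each library gave 9070 to 10459 (WT) and 7891 to 9727 (IL13KO) calls against monoculture. Upper-quartile scaling turned the balance of higher and lower calls to 4821 and 5636 in WT and 4490 and 5263 in IL13KO coculture. With the GC and length trend removed, higher and lower calls were 4123 and 5526 in WT coculture (5355 and 4857 without removal) and 3027 and 4990 in IL13KO coculture (4927 and 4457). Same-numbered libraries did not deviate together, with correlations of -0.126 to 0.028, and 1 of 10 libraries correlated best with its own number. No sign of pairing by number was seen, but with so few libraries the check cannot exclude it. Under the block Car5b in WT coculture was 0.033, Car12 between the cocultures 0.20, Car14 between them 0.35, and Car13 between them 0.46, no longer called. It also added calls of Car14 in WT (0.82) and Aqp9 in IL13KO coculture (2.74), and lost those of Car6 in WT coculture (0.51) and between the cocultures (0.62), Slc4a8 in IL13KO coculture (2.41) and Asic3 between the cocultures (-0.71).

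With limma-voom Car3 gave -8.19 and -4.75 against monoculture, not called, and with DESeq2 -4.12 between the cocultures, called. Upper-quartile scaling gave Car13 0.26 in WT coculture, not called, and Car11 -0.0055 in IL13KO coculture. With the GC and length trend removed, signs turned for Car5b (0.07) and Car7 (-0.11) in WT coculture, Car13 (0.26) and Car11 (-0.75) in IL13KO coculture, Slc26a6 (-0.32) and Asic3 (-0.43) in WT coculture, Slc9a8 in WT (-0.23) and IL13KO (-0.30) coculture, and Slc4a3 (-0.16) in IL13KO coculture. The cause was not tested.

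Leaving out each library gave, in WT coculture against monoculture, -0.34 to 0.14 for Car5b, -0.12 to 1.19 for Car7, -0.40 to 1.20 for Car12, -0.32 to 0.52 for Aqp11 and -0.066 to 2.68 for Aqp9. Car7 in IL13KO coculture ranged from 0.60 to 1.91. Between the cocultures the ranges were -4.79 to -2.91 for Car3, -0.079 to 0.35 for Car5b, -1.27 to 0.33 for Car12, 0.44 to 0.62 for Car13, -0.23 to 0.21 for Car14 and -0.77 to 0.10 for Aqp11. With only the groups compared, Car3 between the cocultures and Car7 against monoculture fell below the filter, and the stricter filter left out Car7 and Car12. At 0 to 16 reads a library, depth limits Car2, Car9 and Car12.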
